A study of Mus musculus with 8 samples.

Results

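DNA methyltransferases, their cofactors and methyl-CpG readers were examined in mouse embryonic stem cells (mESCs) as 9 genes picked by name, Dnmt1, Dnmt3a, Dnmt3b, Dnmt3l, Uhrf1, Uhrf2, Hells, Mbd1 and Mbd2. All 9 had a row among the 19429 genes of the deposited RNA-seq table. The study asked what changes when TET1, the dioxygenase that oxidises 5-methylcytosine (5mC), binds its partner OGT less well. It compared LF2 mESCs with wild-type TET1 (WT, lines 2 and 5) and LF2 mESCs with the TET1 mutation D2018A (lines 7 and 8), all carrying a C-terminal FLAG tag and a 2A-linked fluorescent protein on both Tet1 alleles and all grown with serum and LIF. Each of the 4 lines was propagated from a single edited cell and yielded 2 libraries as technical replicates, so each genotype had 4 libraries. Per the study, WT cells also carry a deletion that D2018A cells lack, which it examined in further lines.

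Each gene has 1 measured value here, the authors' mean normalised count, which averages over libraries of both genotypes. The other values of the table are the authors' own comparison of the genotypes, and they were not used. Nothing below is therefore a difference between WT and D2018A, and no value has a spread or a test. The smallest means fell on 12 single-read steps, values that between 38 and 123 genes share because each had 1 read in the same library. Read this way, the mean covered at least 12 libraries, 4 more than the 8 that are described, and what the other 4 were was not analysed here. Taking 12 libraries, the size factors read from the steps, a measure of relative depth, lay between 0.726 and 1.47, and all means together summed to 10937569 normalised counts. Markers of mESCs were high: the means of 10 stem cell genes ran from 977 for Zfp42 to 23079 for Esrrb. Among markers of other cell types, 6 of primitive endoderm had a summed mean of 456, 5 of trophectoderm 240, 3 of mesoderm 16.9, 4 of neural ectoderm 440, 4 of feeder fibroblasts 310 and 2 of blood 27.7. Some of these were not near the floor. Sox7 (331), Sox1 (199), Eomes (199), Thy1 (194), Pax6 (190), Col1a1 (115) and Gata4 (76.8) lay above the median gene, whose mean was 63.2. The remaining marker genes, 3 for fibroblasts (Postn, Dcn and Lum) and 1 for blood (Hbb-bt), had no row under that name.

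In mammals, DNMT3A and DNMT3B place methyl groups on CpG sites that had none, and DNMT3L, which has lost catalytic activity, binds and stimulates them. DNMT1 copies methylation onto the new strand after replication. UHRF1 recognises the half-methylated site and recruits DNMT1, UHRF2 is its paralog, and HELLS (also known as LSH) is a chromatin remodeller that cells need for normal methylation. MBD1 and MBD2 bind methylated CpG sites and recruit repressors. Mouse ES cells are known for high expression of parts of this machinery.

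To show what kind of promoter each gene has, RefSeq start sites (GRCm38.p6) were taken with 250 bases before and 50 bases after them. Such windows were found for 7 of the 9 genes, 14 windows in all. The windows of the Dnmt3 family held from 3 to 47 CpG dinucleotides, while the median of the 32851 windows in the reference was 7. The stretches below run 5′ to 3′ in the direction of transcription, contain no base of an annotated exon of their gene, and have every CpG dinucleotide in capitals. Those of Dnmt3a and Dnmt3l lie within the annotated span of the gene, since other transcripts start further upstream. They are shown because CpG is the substrate of these enzymes and because these starts of the 3 paralogs differ in it so widely. The first Dnmt1 start is shown as the start with the fewest CpG among the 14 windows. Which starts the cells used was not measured.

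Dnmt3a, first start, chr12:3806730-3806979 (+): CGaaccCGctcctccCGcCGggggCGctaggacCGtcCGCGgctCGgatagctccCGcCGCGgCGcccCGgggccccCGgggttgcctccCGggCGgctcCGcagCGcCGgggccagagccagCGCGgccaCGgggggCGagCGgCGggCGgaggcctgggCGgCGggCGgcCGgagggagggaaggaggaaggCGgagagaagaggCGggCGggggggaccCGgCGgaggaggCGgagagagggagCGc
Dnmt3b, its start, chr2:153649199-153649448 (+): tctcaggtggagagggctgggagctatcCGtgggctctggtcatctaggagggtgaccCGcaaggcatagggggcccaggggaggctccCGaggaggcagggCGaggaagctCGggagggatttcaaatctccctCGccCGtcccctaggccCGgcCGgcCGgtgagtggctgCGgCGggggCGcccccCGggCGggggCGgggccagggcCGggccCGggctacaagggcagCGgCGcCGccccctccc
Dnmt3l, second start, chr10:78049592-78049841 (+): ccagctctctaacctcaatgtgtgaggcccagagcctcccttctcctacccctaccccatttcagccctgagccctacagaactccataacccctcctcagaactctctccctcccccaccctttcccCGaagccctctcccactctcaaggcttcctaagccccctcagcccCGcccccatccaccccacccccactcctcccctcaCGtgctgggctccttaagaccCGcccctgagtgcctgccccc
Dnmt1, first start, chr9:20959889-20960138 (-): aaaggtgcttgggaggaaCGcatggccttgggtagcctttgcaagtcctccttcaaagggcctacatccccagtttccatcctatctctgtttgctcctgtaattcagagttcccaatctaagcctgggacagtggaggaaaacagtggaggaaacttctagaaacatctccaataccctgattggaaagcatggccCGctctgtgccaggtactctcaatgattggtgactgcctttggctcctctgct

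The printed Dnmt3a stretch held 38 CpG dinucleotides, that of Dnmt3b 21, that of Dnmt3l 4 and that of Dnmt1 2. Over the whole 300-base windows, the 3 starts of Dnmt3l had 3, 4 and 6, between percentile 31.4 and 47.9 of all windows. By contrast, the first 2 starts of Dnmt3a had 46 and 47, at percentiles 98.6 and 98.8, although these windows share 120 bases. The last Dnmt3a start lies 84764 bases downstream of the first and had 18. Dnmt1 had both kinds of start, with 2 CpG dinucleotides at the first, 12 at one 6909 bases downstream and 33 at one 7265 bases downstream. Uhrf1 had 12 and 33 at 2 starts 976 bases apart, whereas Hells, Dnmt3b and Uhrf2 had 1 start each, with 34, 30 and 28. Thus 6 of these 7 genes had at least 1 window at or above the upper quartile of 20, the exception being Dnmt3l. This count takes the best of up to 3 windows per gene, while the quartile is that of single windows. The share of all genes with such a window was not measured, so the count has no background. Reads were counted per gene, so a level below sums over all starts of a gene and cannot be divided between them.

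**Figure D1:**
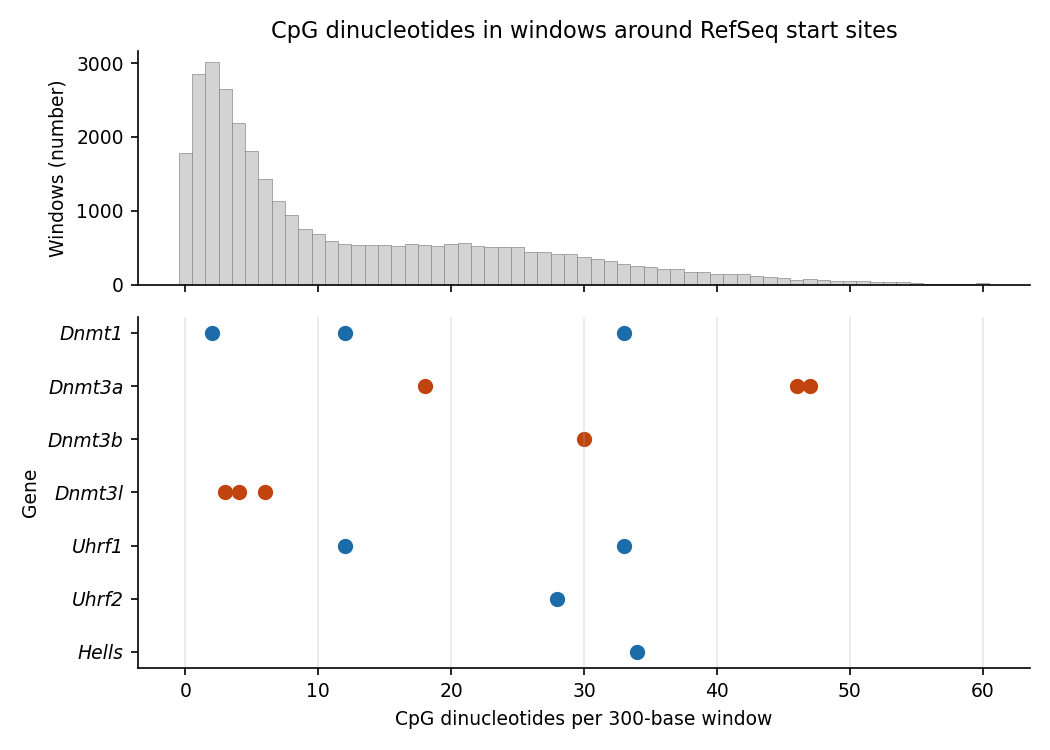
Top, number of RefSeq windows of 300 bases (y axis) by their number of CpG dinucleotides (x axis, 60 stands for 60 or more). Bottom, each point is one of the 14 windows of 7 genes on the same x axis. Dnmt3l lies between 3 and 6, while the first 2 Dnmt3a windows lie at 46 and 47.

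Short motifs were counted in the same windows on both strands. GGGCGG, the GC box, occurred in 11 of the 14 windows and in 35.7% of all windows. CCAAT was found in 4 of the 14, which belong to Dnmt1 and Uhrf1, against 37.4% of all windows. CACGTG, the palindromic E-box, was found in 2, the last Dnmt3a window and the second Dnmt3l window, against 7.15% of all. TATAAA was in 0 of the 14 and in 13.6% of all windows. A GC box adds at least 1 CpG, so these counts overlap with the CpG content, and a match of letters does not show that a factor binds.

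The maintenance methyltransferase was the member with the most reads. Dnmt1 (ENSMUSG00000004099, chromosome 9, 20907209 to 20959888, minus strand) had a mean of 5291 normalised counts, rank 266 in the table, so that 98.6% of genes had a mean at or below it. Since longer transcripts collect more reads, levels are compared between genes as the mean per kb of exon, where the length is the union of all annotated exons. On that scale Dnmt1 stood at 717 per kb and Dnmt3l at 999.7 per kb, so the cofactor and not the enzyme was first. The level of Dnmt1 per length was 0.718 times that of Dnmt3l, and between 0.46 and 0.718 times under the 4 lengths tried.

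Of the UHRF genes and Hells, Uhrf1 had the highest level per kb and Uhrf2 the lowest. Uhrf1 (ENSMUSG00000001228, chromosome 17, 56303321 to 56323486, plus strand) had a mean of 1435 normalised counts, or 337 per kb. Hells (ENSMUSG00000025001, chromosome 19, 38930915 to 38971051, plus strand) had a mean of 1368, or 189.9 per kb. These levels per kb put Dnmt1 2.13 times above Uhrf1 and 3.78 times above Hells. Per kb of coding length, the ratio of Dnmt1 to Uhrf1 was 1.78 and that to Hells was 1.96. Uhrf2 (ENSMUSG00000024817, chromosome 19, 30030513 to 30093722, plus strand) had a mean of 308 and 35.8 per kb, so that Uhrf1 was 9.41 times higher per kb than its paralog. The size of that gap depends on the length used, since Uhrf2 has 8590 exon bases in all but a longest coding transcript of 3536, and per base of that transcript the ratio was 4.60.

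For Uhrf1 the value may also miss reads, because 15.4% of the 50-base stretches of its transcripts, the length of a read, also occur in other genes, which are the processed pseudogenes Gm5648 and Gm15953. Uhrf2 shared 0.152% of its stretches with other genes and Hells 0.618%. Divided by the stretches found in no other gene, Uhrf1 rose from 337 to 390 per kb and kept its place in the order.

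The 3 members of the Dnmt3 family were far apart. Dnmt3l (ENSMUSG00000000730, chromosome 10, 78041947 to 78063622, plus strand) had a mean of 2987 normalised counts, above 96.4% of genes or equal to them. Dnmt3b (ENSMUSG00000027478, chromosome 2, 153649450 to 153687730, plus strand) had a mean of 1572, or 308 per kb. Dnmt3a (ENSMUSG00000020661, chromosome 12, 3806007 to 3914443, plus strand) had a mean of 462 and only 27.7 per kb, next to last among the 9 genes. Per kb, Dnmt3b exceeded Dnmt3a 11.1-fold, and Dnmt3l exceeded Dnmt3a 36.0-fold. Even against the sum of both enzymes, the level of Dnmt3l per kb was 2.98 times higher, and it was between 2.78 and 3.98 times higher under the 4 lengths.

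How far Dnmt3a fell below the others depended on the length used. Its annotated exons cover 16642 bases, the most of the 9 genes, while its longest coding sequence spans 2724. Per kb of coding length its level was 170 and that of Dnmt3b 609, a ratio of 3.60 in place of 11.1. The ratio of Dnmt3l to Dnmt3a was likewise smaller on that scale, 14.0 in place of 36.0. With that length Dnmt3a also moved above Uhrf2, the only exchange of places among the 9 genes under any length. Dnmt3b shared 9.81% of its 50-base stretches with its close copy Dnmt3c, which has no value here. Reads of Dnmt3b in these stretches could therefore have been lost, or reads from the copy added. Dnmt3a and Dnmt3l shared 0.537% and 0.632%. On the opposite strand, 67 exon bases of Dnmt3l overlap Aire, whose mean was 1730 normalised counts, and 133 of Dnmt3a overlap Dnmt3aos, whose mean was 0.0771. Whether strand was used in counting is not given in the sources used here, so reads in these bases are uncertain.

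**Figure D2:**
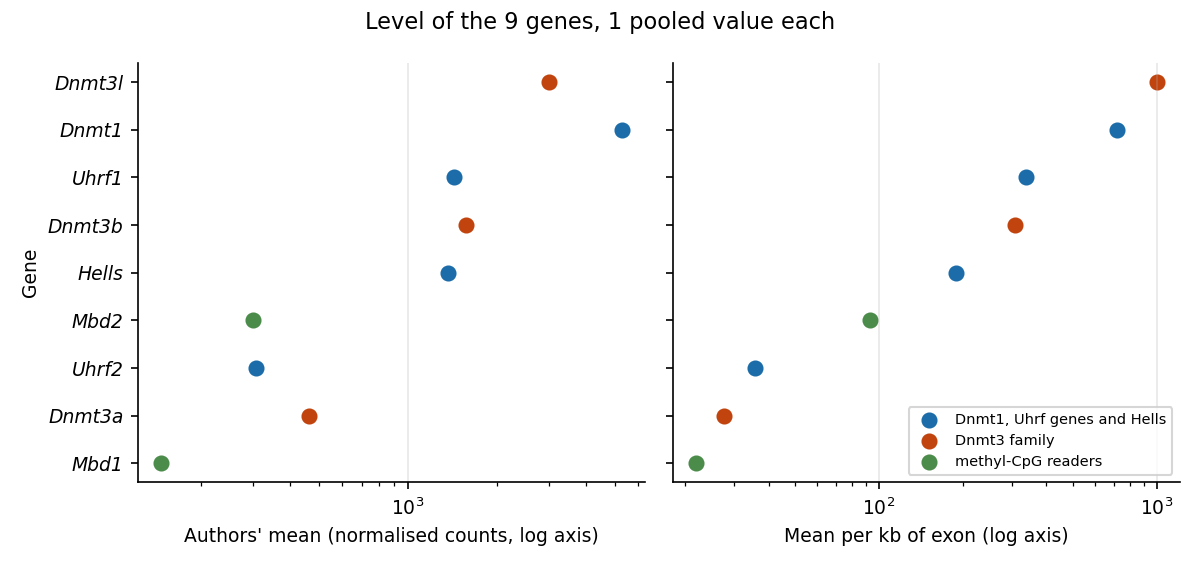
The authors' mean (left, normalised counts, log axis) and the mean per kb of exon (right, log axis) of the 9 genes (y axis), 1 pooled value each without error bars, coloured by group. Dnmt1 has the highest mean at 5291, and Dnmt3l is first per kb at 999.7.

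**Figure D3:**
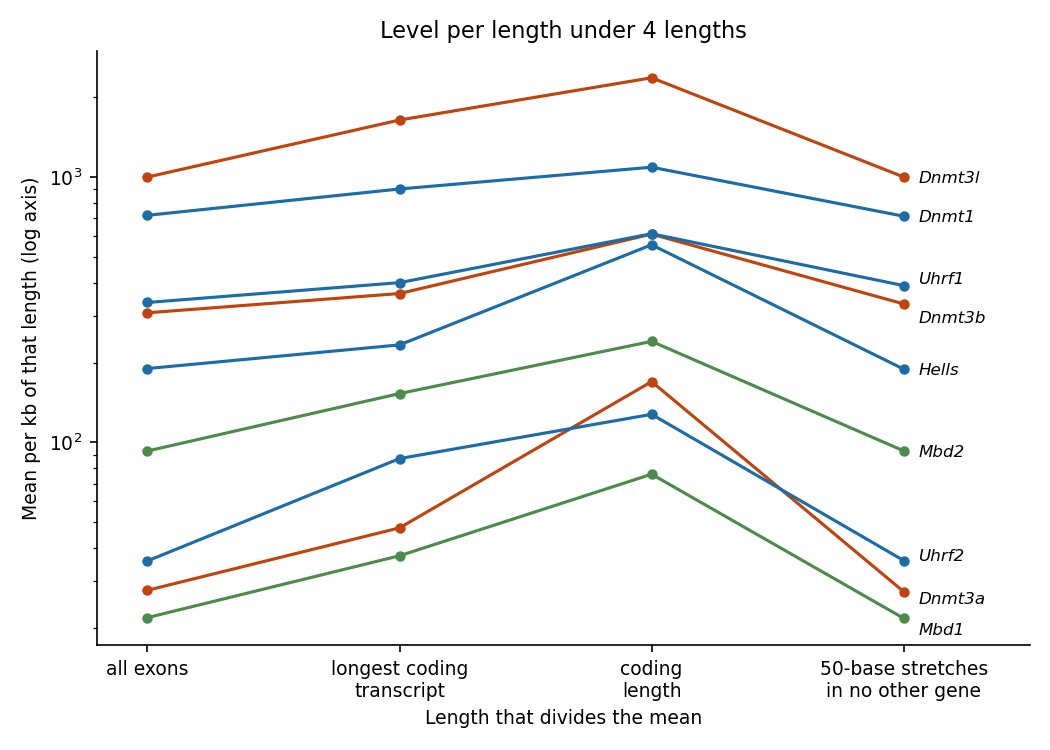
Mean per kb (y axis, log) of each gene when divided by 4 lengths (x axis): all exons, the longest coding transcript, the coding length, and the 50-base stretches that occur in no other gene. Lines join the values of a gene. Dnmt3a lies above Uhrf2 at the coding length and below it at the other 3, and no other lines cross.

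Both methyl-CpG readers had lower means than the other 7 genes, though Mbd2 at 299 lay close to Uhrf2 at 308. Per kb, Mbd1 was last while Mbd2 stood above Uhrf2 and Dnmt3a. Mbd2 (ENSMUSG00000024513, chromosome 18, 70568189 to 70626131, plus strand), which links methylated DNA to the NuRD deacetylase complex, had a mean of 299 normalised counts and 92.9 per kb. Mbd1 (ENSMUSG00000024561, chromosome 18, 74267605 to 74282732, plus strand), which recruits histone methyltransferases, had a mean of 147 and 21.9 per kb, last on both scales. Mbd2 was 4.24 times higher than Mbd1 per kb, and between 3.16 and 4.27 times under the 4 lengths. Neither gene overlapped exons of another, and 0% and 0.0889% of their stretches recurred elsewhere.

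Altogether the order per kb was Dnmt3l, Dnmt1, Uhrf1, Dnmt3b, Hells, Mbd2, Uhrf2, Dnmt3a and Mbd1, with a 45.7-fold range. Without values per library it cannot be said which neighbours differ beyond the spread of samples. The closest pair was Uhrf1 and Dnmt3b, with a ratio of 1.09 per kb of exon and of 1.00 per kb of coding length. Every gene lay above the median gene of the table, which had a mean of 63.2 normalised counts and 17.1 per kb. For Mbd1 the margin was 1.28-fold per kb, and for Dnmt3a 1.62-fold, compared with 58.5-fold for Dnmt3l. In counting terms even Mbd1 was well covered. Divided by the highest and the lowest single-read step, its mean was worth between 1278 and 2595 reads, which holds if any library whose step was not found had a depth within the same range. These values concern depth only and not the variation between cultures. The 9 genes together summed to 13868 normalised counts.

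**Figure D4:**
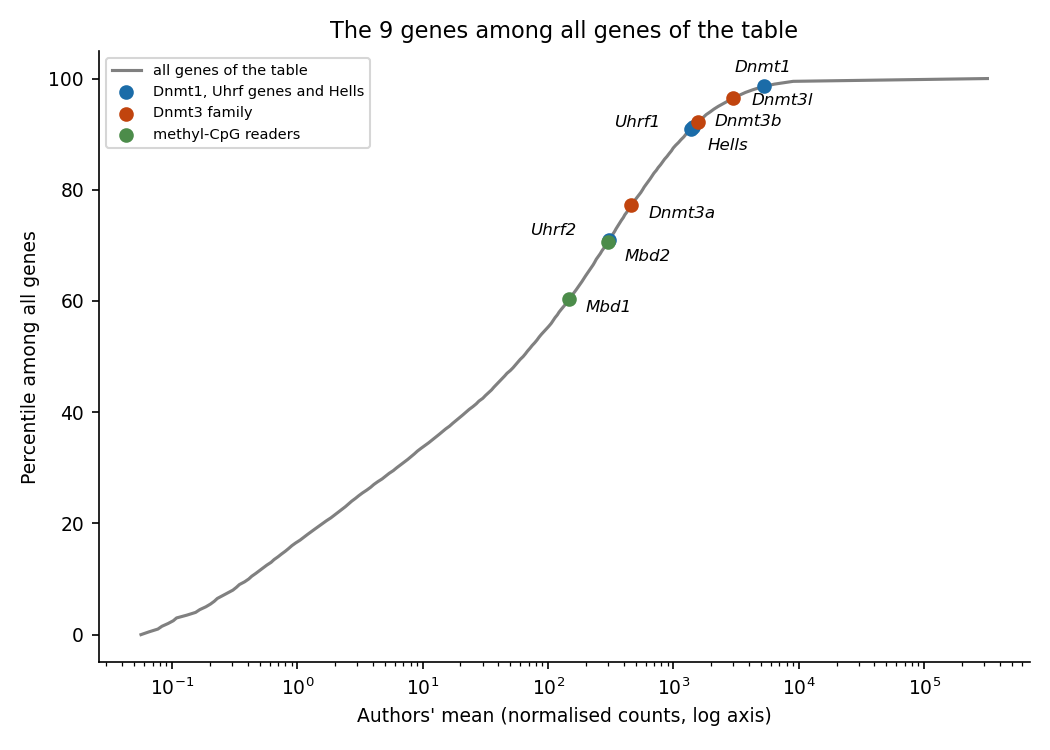
Percentile of each gene's mean among the 19429 genes (y axis) against the authors' mean in normalised counts (x axis, log). The grey line is the distribution of all genes. The points run from percentile 60.3 for Mbd1 to 98.6 for Dnmt1.

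The 9 genes were then placed among 30 other genes of a list drawn up around 5mC, including the TET enzymes that oxidise it. Not all of the 30 act on 5mC in DNA, Trdmt1 below being an example. Of these 30, 28 were above the median gene per kb, and their median was 171 per kb, compared with 189.9 for the 9 members. Trim28, the KAP1 corepressor that protects imprints, was highest with 6084 per kb. It was followed by Tet1, the edited gene, with 1493, and by Lig1, the DNA ligase that joins newly made DNA, with 1397. Only these 3 exceeded Dnmt3l, and Zfp57 lay just below it, at 997.7 against 999.7 per kb. At the other end were Trdmt1, an RNA methyltransferase once named Dnmt2, with 22.7 per kb, Dppa3, which protects the maternal genome from demethylation, with 8.16, and Tdg, the glycosylase that removes oxidised 5mC, with 3.27. How many reads of these other genes fall in stretches shared with copies elsewhere was not measured. Dnmt3a had 27 of the 30 genes above it and Mbd1 had 28, whereas Dnmt1 had 5, Uhrf1 11, Dnmt3b 12, Hells 15, Mbd2 18 and Uhrf2 26. These places hold for the length of all exons only, since no other length was tried for the 30 genes. The level of Dnmt3a depended strongly on that choice, with 27.7 per kb of exon but 170 per kb of coding length.

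**Figure D5:**
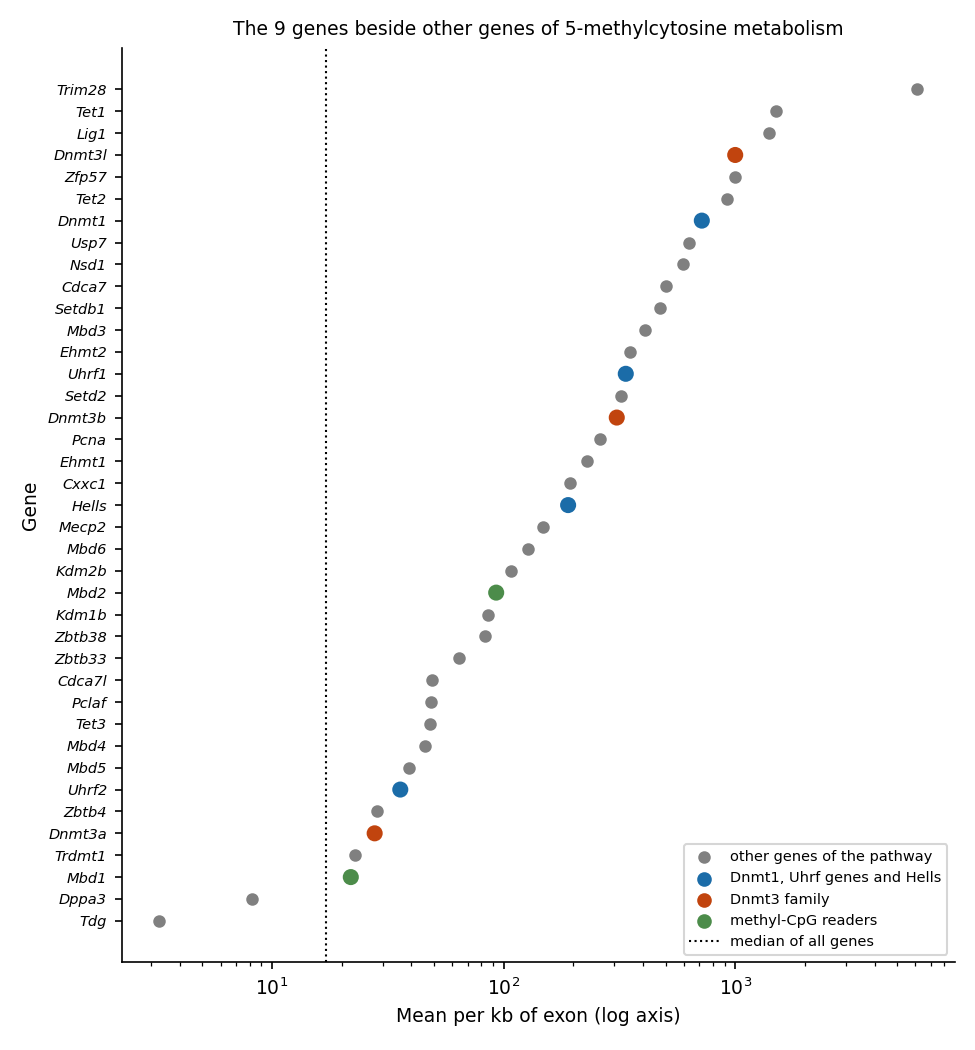
Mean per kb of exon (x axis, log) of the 9 genes (coloured) and of 30 other genes of a list drawn up around 5mC (grey), in order of level (y axis). The dotted line is the median of all genes, 17.1 per kb. Trim28, Tet1 and Lig1 lie above Dnmt3l, and Dppa3 and Tdg lie below the line.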

How the data were processed

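RNA-seq libraries were made from rRNA-depleted total RNA of mESCs, 4 per genotype, and sequenced as single-end reads of 50 bases. Per the labels and the study's methods, reads were aligned to GRCm38.p6 and counted per gene with STAR 2.5.3a, then normalised with DESeq2 1.20.0. The deposited mean is a signal, gene counts divided by a size factor per library and averaged by the authors over all libraries of their fit. The remaining columns hold the authors' own fold change, its standard error, statistic and p-values for D2018A against WT. They were not used, so no genotype comparison was made. The table holds 0 other columns of values per sample.

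Lengths came from GENCODE vM21, which held 19351 of the 19429 identifiers and gave the 9 genes the same coordinates as the table. Promoters came from RefSeq (GRCm38.p6). Steps were values shared by at least 30 genes that were no sums of lower steps. Tested on simulated Poisson counts for 19429 genes, in a single run per number of libraries, this found 8 of 8 and 10 of 10 libraries and 10 of 12. These runs gave 0 false steps, so the count was read as a lower limit. How often false steps arise in real counts was not tested. Python 3.11.15, pandas 2.3.3 and matplotlib 3.10.9 were used. Every member was named, as were the 3 highest and 3 lowest genes of a list of the pathway, Tet1, and Zfp57 as the gene next below Dnmt3l. The members and lists were chosen with earlier results of these data known. Alternative lengths, gene sets and step minimums were tried. The planned protein identity between paralogs was not run.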

Additional observations from a re-analysis of the deposited data

How the results depend on the processing

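No paired analysis was possible because the only value used is 1 mean per gene over all libraries, and for the same reason no library could be left out. The range of the members per kb, 45.7-fold, stayed between 31.1 and 46.0-fold under the other 3 lengths. Of the 9 places in the order, 9 were kept with the longest coding transcript, 9 with stretches found in no other gene and 7 with the coding length, since Dnmt3a and Uhrf2 exchanged places. The lowest percentile among the members, that of Mbd1, was 60.3 over all genes, 54.9 over protein-coding genes, 53.7 per kb, and 40.1 over genes with a mean of at least 10. In that last set fewer low genes remain by construction, and 88.9% of the members, in place of 100%, were at or above the median. The number of libraries behind the mean was 12 with at least 20 genes per step as well, and 5 with at least 50, a minimum that most steps miss with their 38 to 47 genes. For single genes, 39 values stayed within 1.5-fold of the value given and 15 did not. These counts pool levels per kb with percentiles, which cannot exceed 100 and so have little room to move. Apart from the percentile of Mbd1, the values that moved were levels per kb. With the coding length, all 9 levels rose by more than 1.5-fold. The protein alignments planned between paralogs were not run, because no protein sequences were used here. Depth limits none of the 9 levels, but the variation between lines and between genotypes was not analysed here.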
